A study of Equus caballus with 45 samples.

Results

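The osteoclast programme was followed here through 7 genes, namely SIGLEC15, ACP5, CTSK, DCSTAMP, OCSTAMP, NFATC1 and CALCR, out of 20881 protein coding genes in the equine count tables. They were chosen by symbol, because SIGLEC15 had been seen to be lower in macrophages given STING-MSC-CM than in macrophages given resting MSC-CM, and all 7 were found in both tables. That contrast therefore chose the genes, and its values are given below as a description, with no test.

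The tables hold 45 libraries of bulk RNA sequencing from horses. The 12 mesenchymal stromal cell (MSC) libraries came from the donor horses PC, 99 and 92, each untreated, given a TLR3 agonist (poly I:C), given a STING agonist (2′3′-cGAMP) or labelled CpG. The 33 joint cell libraries came from macrophages, synoviocytes and chondrocytes, 11 of each, and each cell type came from 1 horse. In each joint cell type, 9 libraries were from cells given both IL-1β and TNF-α together with medium (CM) conditioned by MSC that were resting or had been activated through TLR3 (TLR-MSC-CM) or STING (STING-MSC-CM), with PC, ORC and AG1 as the MSC donors. A further library had the cytokines without any MSC-CM, and another had no addition. The labels give 24 h of treatment for the joint cells. Per the study's methods, treated cells were then washed and kept for 24 h more in their growth medium before RNA was collected. The macrophages were derived from blood mononuclear cells grown with M-CSF at 30 ng/mL for 5 days, and the labels name no RANKL. Agonist doses read 10 ng/mL in the labels and 10 μg/mL in the series design. The labels give the cytokines at 10 ng/mL on macrophages and 20 ng/mL on synoviocytes, and no cytokine dose on chondrocytes. The study's methods give 20 ng/mL on macrophages as well, so the sources differ on that dose. The 3 replicates of a medium thus differ in the MSC donor of the medium and not in the horse that gave the joint cells, so that the p-values describe the spread over MSC donors on the cells of 1 animal. The labels give no age or breed.

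Osteoclasts are the cells that resorb bone, and they form when monocytes or macrophages exposed to M-CSF and RANKL fuse into multinucleated cells. RANKL signals through RANK and, with co-stimulation from receptors that use the adaptor DAP12 (TYROBP), induces the transcription factor NFATC1, which switches on the genes for fusion and for resorption. SIGLEC15 is a sialic acid-binding receptor that signals through DAP12 in osteoclasts and has also been studied as an immune inhibitory molecule on macrophages. In arthritic joints osteoclasts erode the bone beside and beneath the cartilage.

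Total counts per library ran from 23525704 to 54103873, and from 23525704 to 40403096 in macrophages. Levels are given as CPM (counts divided by the library total and brought to a common scale), scaled by edgeR's TMM factors, and a count of 3 in a library, equal to 0.0555 to 0.128 CPM, was taken as the floor. Exon lengths were not used, so CPM values of different genes are not strictly comparable in level. Ranks by CPM were used only within the gene lists. The 19 macrophage marker genes in the tables (of 20 written, among them CSF1R, SPI1 and TYROBP) summed to 11900 to 17520 CPM in the macrophage libraries with MSC-CM and to at most 39.2 CPM in synoviocytes and chondrocytes. In MSC the sum was 12.8 to 17.7 CPM untreated, 10.9 to 140 CPM with the TLR3 agonist, 52.7 to 329 CPM with the STING agonist and 9.81 to 22.75 CPM under the CpG label. T cell markers (8 genes) summed to 337 to 557 CPM in macrophages with MSC-CM and to at most 0.179 CPM in synoviocytes and chondrocytes. With resting MSC-CM the 11 chondrocyte markers found (of 12 written) summed to 196 to 598 CPM in chondrocytes and 190 to 208 CPM in synoviocytes. In macrophages with that medium their sum was 6.18 to 9.1 CPM. Of these markers, COL9A1 and COL11A2 were at the floor in chondrocytes under every condition. COL2A1 and CNMD were also at the floor there with resting MSC-CM.

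All of the genes but CALCR were measured well above the floor in macrophages, and 3 of them, SIGLEC15, DCSTAMP and OCSTAMP, were at or near the floor in every other cell type. SIGLEC15 ranged from 16.2 to 41.7 CPM over the 11 macrophage libraries, with 407 to 1649 counts. In the other 34 libraries it had 0 to 7 counts, and 1 of them, synoviocytes with TLR-MSC-CM of donor PC at 7 counts, exceeded the floor. With resting MSC-CM, SIGLEC15 was at least 288-fold higher in macrophages than in synoviocytes and at least 254-fold higher than in chondrocytes, taking the floor of 3 counts per library for the lower group.

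DCSTAMP and OCSTAMP encode membrane proteins needed for the fusion of osteoclast precursors. DCSTAMP ranged from 192 to 483 CPM in macrophages and had 0 to 3 counts in all other libraries, which with resting MSC-CM made it at least 2730-fold higher than in synoviocytes and at least 2409-fold higher than in chondrocytes. OCSTAMP ranged from 128 to 309 CPM in macrophages and was at 0 counts in all 11 chondrocyte libraries, at least 1666-fold lower with resting MSC-CM. Synoviocytes held 0 to 11 counts of OCSTAMP (0 to 0.344 CPM), and 7 of 11 libraries there exceeded the floor.

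CALCR, the calcitonin receptor and a marker of mature osteoclasts, was not detected above the floor in any library but 1. It had 0 to 4 counts in macrophages, the 4 counts being in the STING-MSC-CM library of donor ORC, and 0 to 3 counts elsewhere. No fold change was computed for it. The macrophages therefore carried transcripts of fusion and resorption genes while the calcitonin receptor stayed near 0, and the name of the programme rests here on the symbols of the genes and not on a cell type found in the cultures.

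ACP5, CTSK and NFATC1 were found in more than 1 cell type. ACP5 encodes tartrate-resistant acid phosphatase, the classical enzyme stain of osteoclasts, and with resting MSC-CM it stood at 56.7, 102 and 86.3 CPM (donors AG1, ORC and PC) in macrophages against 5.37 to 7.24 CPM in synoviocytes and 0 to 0.493 CPM in chondrocytes. The log2 difference was 3.68 (SE 0.323, adjusted p = 2.05e-06) from synoviocytes and 8.11 (SE 0.450, adjusted p = 5.51e-08) from chondrocytes. CTSK, the collagen-cleaving protease cathepsin K, stood at 2465, 2759 and 2083 CPM in macrophages, 265 to 333 CPM in synoviocytes and 482 to 530 CPM in chondrocytes. Its log2 differences were 2.97 (SE 0.149, adjusted p = 2.58e-08) and 2.26 (SE 0.145, adjusted p = 1.71e-07).

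NFATC1 showed the smallest of these differences. It stood at 35.4, 52.8 and 48.2 CPM in macrophages, 25.1 to 27.9 CPM in synoviocytes and 32.5 to 35.6 CPM in chondrocytes. Macrophages were higher than synoviocytes by 0.73 on the log2 scale (SE 0.139, adjusted p = 7.65e-04) with no overlap, and higher than chondrocytes by 0.39 (SE 0.138, adjusted p = 0.0265) with 1 macrophage library, donor AG1, inside the chondrocyte range. The second call was lost when the macrophage library of ORC or PC, or the chondrocyte library of PC, was left out (adjusted p = 0.108, 0.0695 and 0.0799). These calls are read against a background in which 36.6% of the 15599 genes tested were called higher in macrophages than in synoviocytes, and 36.6% likewise against chondrocytes. In bulk samples, fewer cells of a type and less RNA per cell cannot be told apart.

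**Figure D1:**
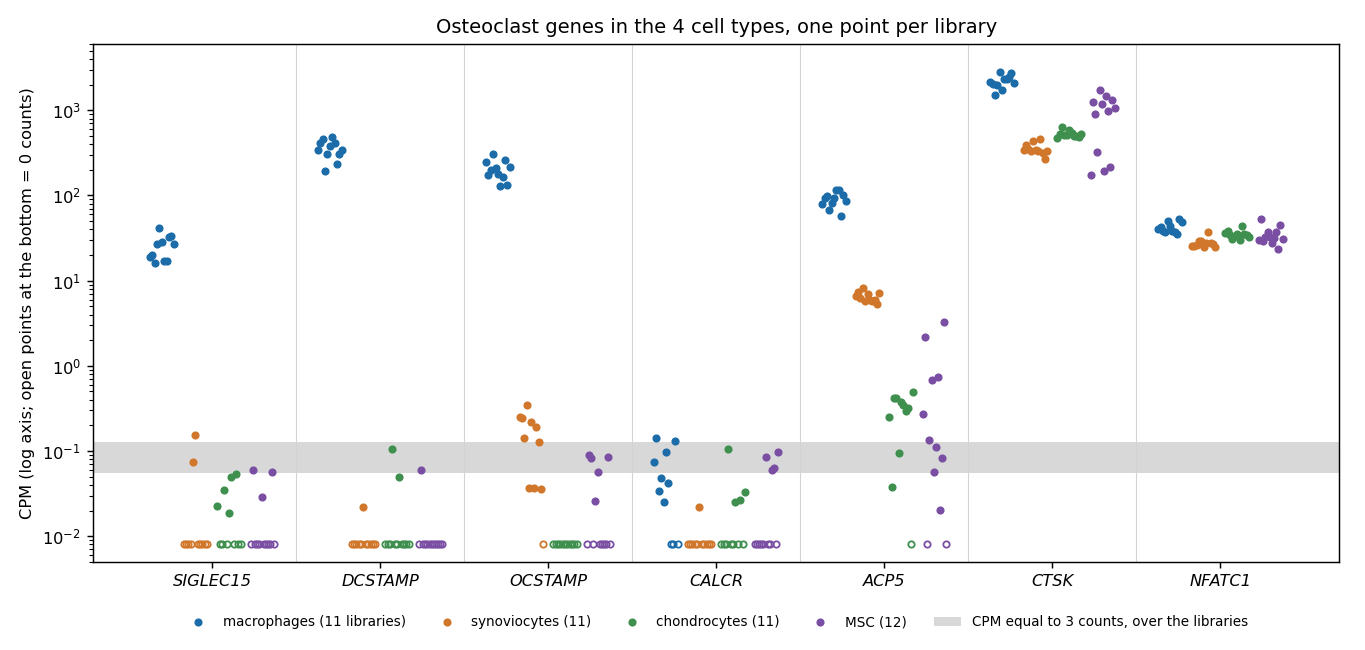
CPM of the 7 genes on a log axis in each of the 45 libraries, coloured by cell type, with libraries at 0 counts drawn as open points at the bottom and the CPM equal to 3 counts shaded in grey. SIGLEC15, DCSTAMP and OCSTAMP are high in the 11 macrophage libraries and at or near the floor elsewhere, CALCR is near the floor in all 4 cell types, and NFATC1 lies between 23.4 and 53.1 CPM everywhere.

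In macrophages SIGLEC15 was the gene on which the choice rested. It measured 32.4, 33.7 and 26.8 CPM with resting MSC-CM of the donors AG1, ORC and PC, 26.96, 41.7 and 28.7 CPM with TLR-MSC-CM, and 18.8, 19.8 and 16.2 CPM with STING-MSC-CM. All 3 STING-MSC-CM libraries were below all 6 others with MSC-CM, and the resting and TLR-MSC-CM libraries overlapped. The ratio of STING-MSC-CM to resting MSC-CM was 0.581, 0.587 and 0.607 in the donors AG1, ORC and PC, and the ratio of STING-MSC-CM to TLR-MSC-CM was 0.697, 0.474 and 0.566. The fitted log2 fold change was −0.76 (SE 0.170) against resting MSC-CM and −0.84 (SE 0.170) against TLR-MSC-CM. For scale, 5.31% of the 15052 genes tested had all STING-MSC-CM libraries below all resting ones and 6.56% had them below all TLR-MSC-CM ones, and since the gene was chosen from this contrast nothing is read from these shares. With TLR-MSC-CM against resting MSC-CM the log2 fold change was 0.08 (SE 0.167), lower in the donor AG1 and higher in ORC and PC.

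The macrophages without MSC-CM stood at the low level too. SIGLEC15 was at 17.0 CPM (407 counts) with the cytokines alone and at 17.2 CPM (423 counts) with no addition, both inside the range of the STING-MSC-CM libraries and below all 6 resting and TLR-MSC-CM libraries. The ratio of the cytokine library to the library with no addition was 0.987, with an exact 95% interval of 0.859 to 1.13 that covers counting error only. These are 2 single libraries with no replicate check. Over the 13094 genes measured in them, 9.2% had both single libraries below all 6 resting and TLR-MSC-CM libraries and 12.5% had both above. The order of the SIGLEC15 levels was therefore cytokines alone, no addition and STING-MSC-CM, which overlapped, followed by resting MSC-CM and TLR-MSC-CM, which overlapped each other.

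**Figure D2:**
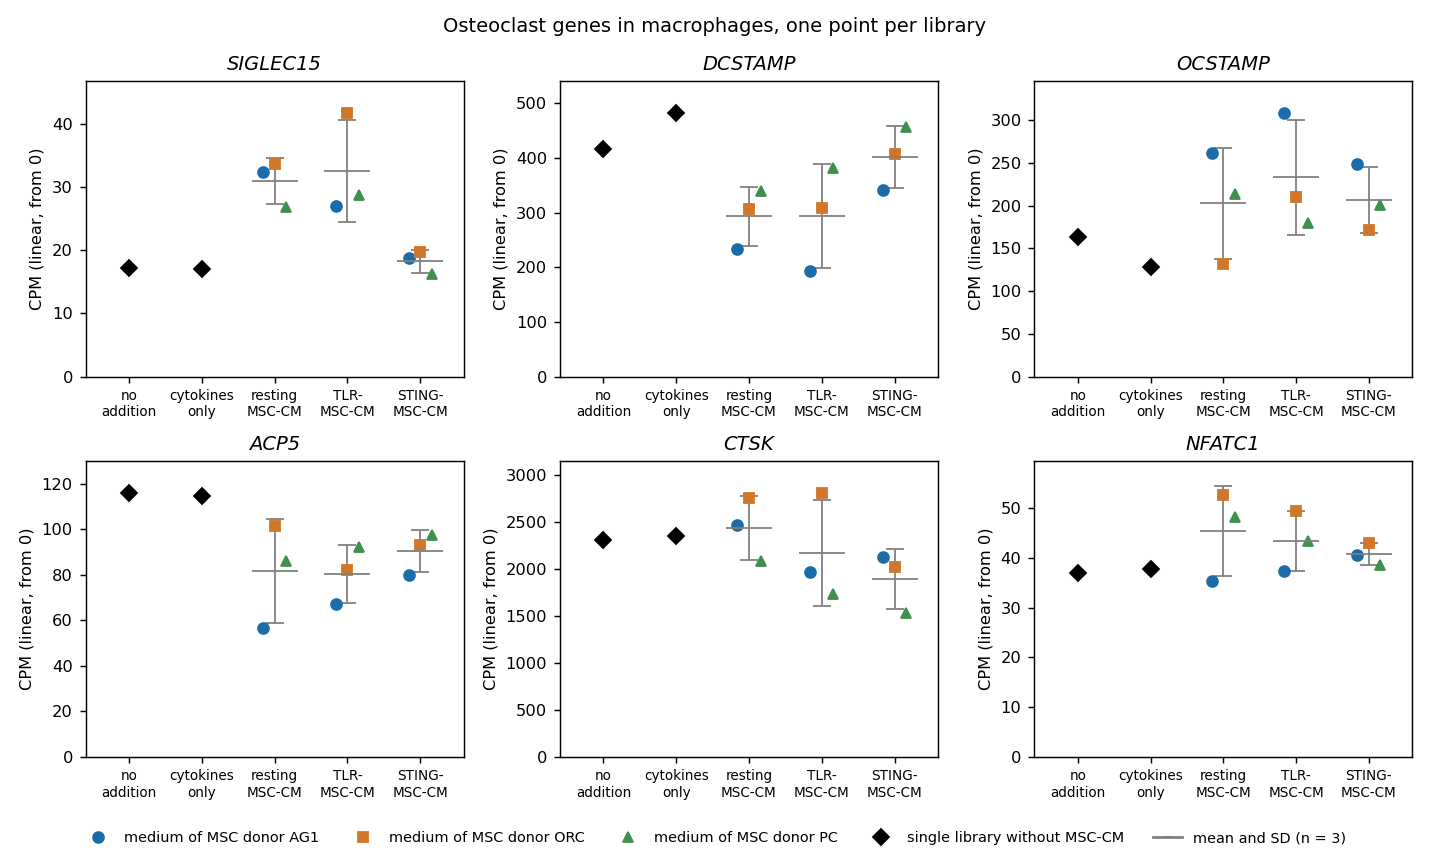
CPM of 6 of the genes in the 11 macrophage libraries, on linear axes from 0, with 1 point per library, the marker giving the MSC donor of the medium and the bars the mean and SD of 3 libraries. SIGLEC15 with STING-MSC-CM (16.2 to 19.8 CPM) lies beside the 2 libraries without MSC-CM (17.0 and 17.2 CPM), and DCSTAMP is lowest in medium of donor AG1 and highest in medium of donor PC under every medium.

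The marker sums of other cells moved in part with the media. T cell markers summed to 356 to 411 CPM with resting MSC-CM, 375 to 557 CPM with TLR-MSC-CM and 337 to 367 CPM with STING-MSC-CM, with none of the 8 genes at the floor in any of these groups, and to 395 and 405 CPM in the single libraries with cytokines alone and with no addition. Neutrophil markers (4 of 9 written, namely CSF3R, LTF, ELANE and MPO) summed to 287 to 591, 433 to 531 and 400 to 564 CPM in the same media. LTF was at the floor with TLR-MSC-CM. The rest of the neutrophil list was missing, so this sum is not read as the presence of neutrophils. Fibroblast markers (12 genes) summed to 9.83 to 17.4, 6.09 to 31.5 and 7.76 to 17.5 CPM. The macrophage markers summed to 13840 to 16270, 11900 to 15760 and 14610 to 17520 CPM. The part of these shifts in the values of the osteoclast genes was not tested.

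DCSTAMP differed in the other direction. It measured 234, 307 and 339 CPM with resting MSC-CM of AG1, ORC and PC, 192, 309 and 381 CPM with TLR-MSC-CM, and 342, 408 and 456 CPM with STING-MSC-CM. The STING-MSC-CM libraries were all above the resting ones, at 1.46, 1.33 and 1.345 times the resting level within the 3 donors, with a log2 fold change of 0.45 (SE 0.227) given as a description. For scale, 4.68% of genes lay wholly above resting MSC-CM in this way. Against TLR-MSC-CM the groups overlapped and the log2 fold change was 0.44 (SE 0.227), higher in 3 of 3 donors as were 19.5% of all genes, with an adjusted p of 0.736 in edgeR's quasi-likelihood test. In this comparison edgeR called 0.0% of the 15052 genes, with 994 genes at an unadjusted p under 0.05, and DESeq2 called 33. With the MSC donor as a block the difference was 0.48 (SE 0.0998) with an adjusted p of 0.0364, and 2.23% of the genes were called. Over all alternatives the adjusted p ran from 0.0364 to 1.0, so that the call rests on the block.

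DCSTAMP was also high without MSC-CM, at 483 CPM with the cytokines alone and 417 CPM with no addition. Both single libraries were above all 6 resting and TLR-MSC-CM libraries, as they were for 12.5% of the 13094 genes measured. The cytokine library was 1.16 times the one with no addition (exact 95% interval 1.13 to 1.19).

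OCSTAMP did not follow DCSTAMP. Its levels were 261, 132 and 214 CPM with resting MSC-CM of AG1, ORC and PC, 309, 210 and 180 CPM with TLR-MSC-CM, and 248, 172 and 201 CPM with STING-MSC-CM, so that all 3 media overlapped. The log2 difference of TLR-MSC-CM from resting MSC-CM was 0.21 (SE 0.262, adjusted p = 0.999), that of STING-MSC-CM from TLR-MSC-CM was −0.18 (SE 0.262, adjusted p = 0.891), and neither had the same direction in all donors. With the cytokines alone OCSTAMP was at 128 CPM, just below the lowest library with MSC-CM. By the easier criterion of lying below the 3 resting libraries only, 22.2% of genes were lower there. With no addition it was at 163 CPM. The ratio of the 2 single libraries was 0.783 (exact 95% interval 0.747 to 0.821).

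The resorption enzymes showed no difference between media that passed the test. ACP5 measured 56.7, 102 and 86.3 CPM with resting MSC-CM, 67.1, 81.9 and 92.2 CPM with TLR-MSC-CM, and 80.1, 93.3 and 97.7 CPM with STING-MSC-CM. Its log2 difference was −0.01 (SE 0.194, adjusted p = 0.999) for TLR-MSC-CM against resting MSC-CM and 0.16 (SE 0.194, adjusted p = 0.867) for STING-MSC-CM against TLR-MSC-CM, the latter being higher in 3 of 3 donors. Both single libraries, at 115 CPM with the cytokines and 116 CPM with no addition, were above all 9 libraries with MSC-CM. Of all genes, 12.5% had both above the 6 resting and TLR-MSC-CM libraries.

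CTSK measured 2465, 2759 and 2083 CPM with resting MSC-CM, 1968, 2808 and 1734 CPM with TLR-MSC-CM, and 2130, 2020 and 1527 CPM with STING-MSC-CM. STING-MSC-CM was below resting MSC-CM within each of the 3 donors, at 0.864, 0.732 and 0.733 times the resting level, although the groups overlapped. The log2 fold change there was −0.37 (SE 0.201), given as a description. It was −0.16 (SE 0.200, adjusted p = 0.999) for TLR-MSC-CM against resting MSC-CM and −0.21 (SE 0.200, adjusted p = 0.833) for STING-MSC-CM against TLR-MSC-CM. The single libraries held 2350 and 2306 CPM, within the resting range.

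NFATC1, the transcription factor above these genes, measured 35.4, 52.8 and 48.2 CPM with resting MSC-CM, 37.5, 49.5 and 43.4 CPM with TLR-MSC-CM, and 40.7, 43.0 and 38.6 CPM with STING-MSC-CM. The media overlapped, with log2 differences of −0.06 (SE 0.150, adjusted p = 0.999) for TLR-MSC-CM against resting MSC-CM and −0.10 (SE 0.150, adjusted p = 0.895) for STING-MSC-CM against TLR-MSC-CM. The 2 libraries without MSC-CM were at 37.9 and 37.0 CPM, in the lower part of the same range. As a description of the comparison that served to choose the genes, SIGLEC15 and CTSK were lower with STING-MSC-CM than with resting MSC-CM in each donor, DCSTAMP was higher in each donor, and ACP5, OCSTAMP and NFATC1 varied in direction between donors. Among all genes 17.7% were lower and 17.1% higher in all 3 donors in that comparison.

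**Figure D3:**
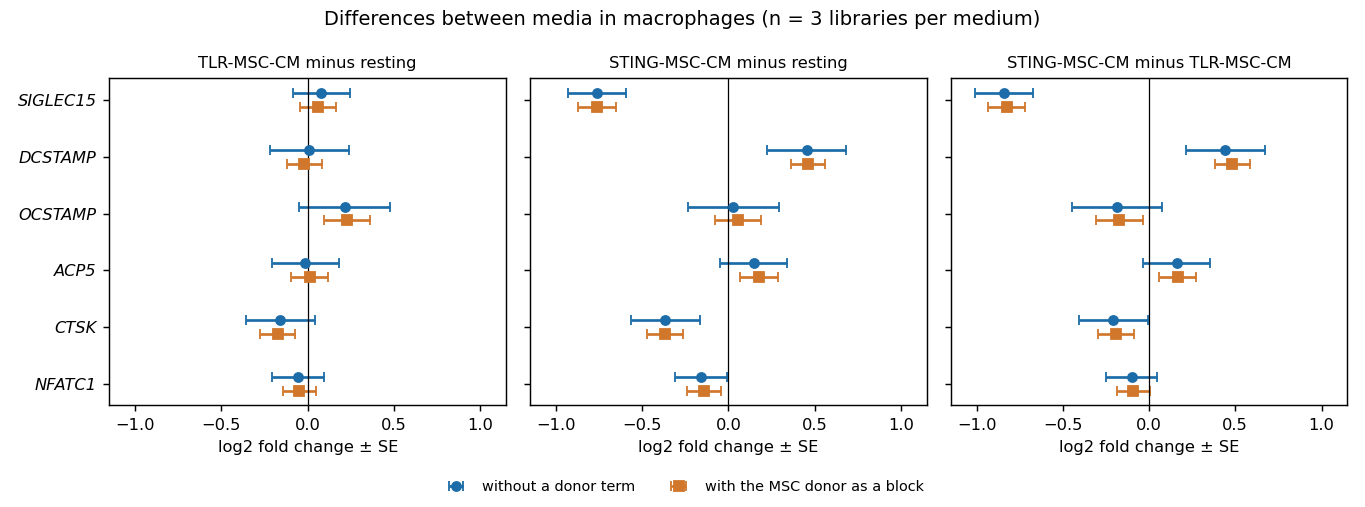
Log2 fold change with its SE for 6 genes between the media in macrophages (3 libraries per medium), fitted without a donor term (blue circles) and with the MSC donor as a block (orange squares). The estimates of both fits lie close together while the SE is smaller with the block, as for DCSTAMP in STING-MSC-CM against TLR-MSC-CM (0.227 against 0.0998). The 3 comparisons share libraries.

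Over the resting, TLR- and STING-MSC-CM libraries together, several of the genes differed between the media of different MSC donors. This was tested by an F test of the donor beside the medium in edgeR's quasi-likelihood fit, a test that was chosen after seeing the data. Donor differences within a single kind of medium were not tested. In macrophages it called 2322 of 15052 genes (15.4%), and 4 of the 6 genes above the floor, DCSTAMP, OCSTAMP, CTSK and ACP5, were among them. Without the resting library of AG1, the resting library of PC or the TLR library of PC it called 980, 1017 and 1279 genes.

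DCSTAMP was lowest with medium of donor AG1 (192 to 342 CPM) and highest with medium of donor PC (339 to 456 CPM) under all 3 media, with ORC between them (307 to 408 CPM). The largest distance between donors was 0.63 on the log2 scale (adjusted p = 0.00462), and the call held in all 13 alternatives. OCSTAMP had the opposite top donor, with 248 to 309 CPM for AG1, 132 to 210 CPM for ORC and 180 to 214 CPM for PC, and AG1 above the other two donors under every medium. Its distance was 0.68 (adjusted p = 0.0131), called in 12 of 13 alternatives and lost without the resting library of AG1 (adjusted p = 0.0788).

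CTSK was lowest with medium of PC under all 3 media (1527 to 2083 CPM against 1968 to 2465 CPM for AG1 and 2020 to 2808 CPM for ORC), a distance of 0.51 (adjusted p = 0.0169, called in 8 of 13 alternatives and lost when 1 of 5 libraries was left out, resting AG1 or PC, STING PC, or TLR ORC or PC, with an adjusted p of up to 0.103). ACP5 was lowest with AG1 under all 3 media (56.7 to 80.1 CPM, against 81.9 to 102 CPM for ORC and 86.3 to 97.7 CPM for PC), a distance of 0.45 (adjusted p = 0.0231, called in 10 of 13 alternatives and lost without resting AG1, resting PC or TLR PC, with an adjusted p of up to 0.143). SIGLEC15 and NFATC1 were both highest with medium of ORC under all 3 media, with distances of 0.40 (adjusted p = 0.0518, between 0.0189 and 0.301 over the alternatives) and 0.35 (adjusted p = 0.0702, between 0.0132 and 0.259). SIGLEC15 had been chosen from a contrast within these same libraries, so nothing is read from its p-values here.

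Macrophage markers moved with the donor in the same libraries, with sums of 11900 to 14610 CPM for AG1, 14630 to 17520 CPM for ORC and 15760 to 17380 CPM for PC, none of the 19 genes being at the floor. The 4 neutrophil marker genes found summed to 531 to 591, 287 to 444 and 433 to 474 CPM, and T cell markers to 355 to 557, 337 to 411 and 356 to 414 CPM. The part of these differences in the donor results was not tested.

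Genes upstream of the osteoclast programme were examined as lists written from general knowledge. Among the 7 ligands and receptors, macrophages held almost no TNFSF11 (RANKL), at 0 to 6 counts per library with MSC-CM, and TNFRSF11A (RANK) at 1.58 ± 0.650 CPM (SD, n = 3) with resting MSC-CM. CSF1R, the M-CSF receptor, was at 697 ± 107 CPM and CSF1, its ligand, at 2929 ± 795 CPM. TNFRSF11B (osteoprotegerin, the decoy receptor of RANKL) was at 0.234 ± 0.139 CPM in macrophages and on average at 58.4 CPM in synoviocytes and 22.6 CPM in chondrocytes, whereas TNFSF11 averaged 1.91 and 4.38 CPM there and 17.8 CPM in untreated MSC. IL34, the second ligand of CSF1R, was at 4.46 ± 0.0947 CPM in macrophages, and LGR4, a further receptor of RANKL, was at the floor.

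None of these 6 tested genes passed the adjusted threshold between media in macrophages. In STING-MSC-CM against TLR-MSC-CM, CSF1 had a log2 difference of −0.40 (SE 0.200, adjusted p = 0.736) and CSF1R one of 0.36 (SE 0.223, adjusted p = 0.762), and the donor block gave adjusted p-values of 0.0682 and 0.0706. By the MSC donor of the medium 2 of the 6 were called against the background of 15.4%: CSF1R averaged 547, 764 and 808 CPM for AG1, ORC and PC (adjusted p = 0.00689), and CSF1 averaged 3293, 2304 and 2691 CPM (adjusted p = 0.0153).

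Over all 7 lists and the 81 of their genes tested and reported here in macrophages, 0 genes were called between TLR-MSC-CM and resting MSC-CM, or between STING-MSC-CM and TLR-MSC-CM, in edgeR's quasi-likelihood test without the block, and 0 and 5 with it. The lists do not include the 7 genes. In the whole table the block called 0.0% and 2.23% of genes. At an unadjusted p under 0.05, 2 and 9 of the 81 genes differed, against 2.13% and 6.6% of all genes tested. The 5 genes were TRAF6 and BTK among the 10 immunoreceptors and adaptors, BTK being at 38.6 ± 6.68 CPM with TLR-MSC-CM and 49.4 ± 8.19 CPM with STING-MSC-CM, and NR4A1, ID3 and BCL6 among the 8 repressors reported.

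TRAF6, which relays the RANK signal, was at 75.8 ± 1.40 CPM with TLR-MSC-CM and 61.2 ± 4.71 CPM with STING-MSC-CM, a log2 difference of −0.32 (SE 0.0981) with a blocked adjusted p of 0.04999, at the threshold itself. NR4A1, an orphan nuclear receptor that restrains NFATC1, was at 8.46 ± 1.46, 13.2 ± 2.38 and 7.01 ± 1.56 CPM with resting, TLR- and STING-MSC-CM. Its log2 difference was −0.93 (SE 0.200) between STING- and TLR-MSC-CM, with an adjusted p of 0.555 without the block and 0.0243 with it.

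ID3 and BCL6 were lower with STING-MSC-CM than with TLR-MSC-CM as well, by −0.64 (SE 0.190, blocked adjusted p = 0.0473) and −0.30 (SE 0.0797, blocked adjusted p = 0.0492). Without the block neither was called. ID3 is an inhibitor of helix-loop-helix factors and BCL6 a transcriptional repressor. The list of repressors is not reported in full, and no direction is given for it as a whole.

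**Figure D4:**
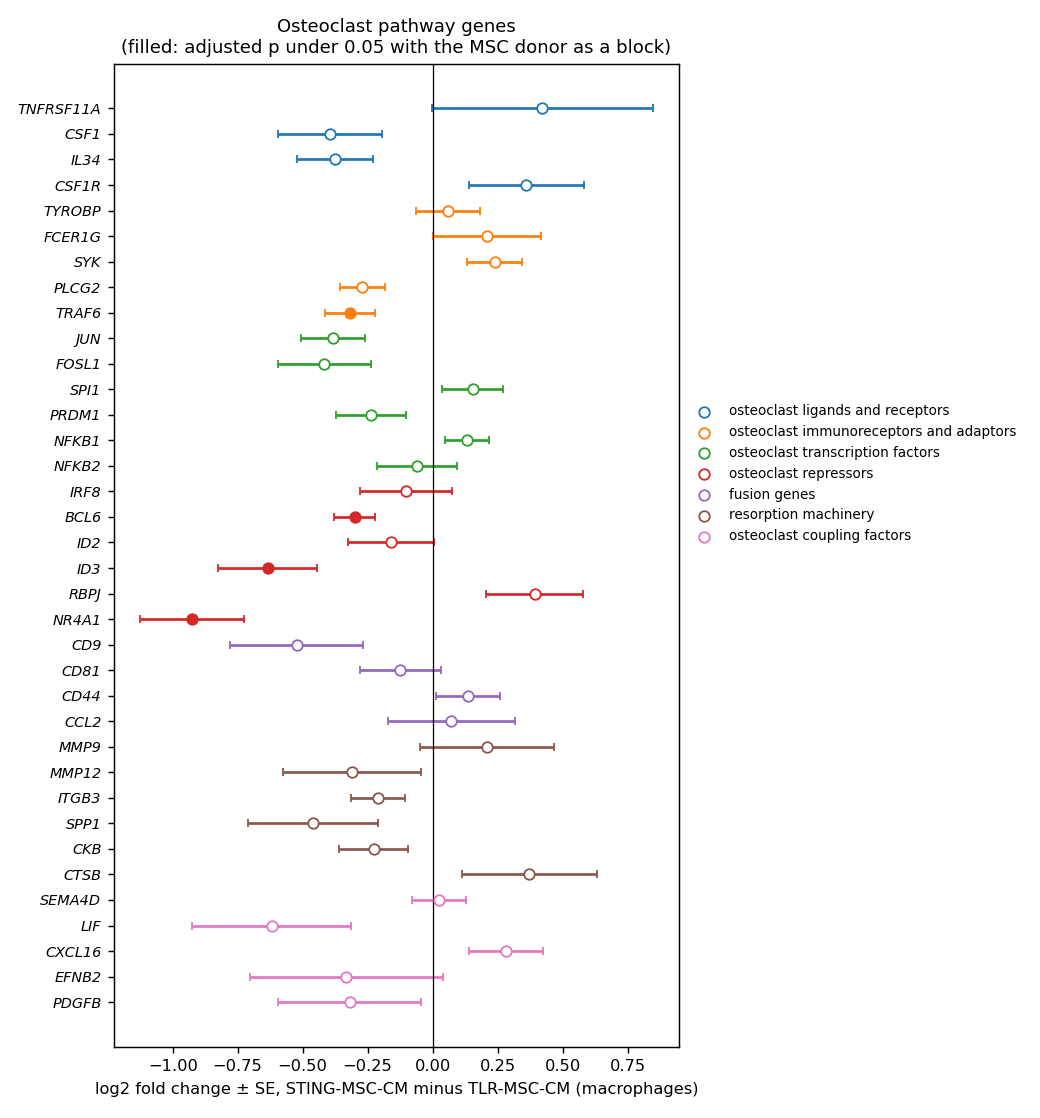
Log2 fold change with its SE between STING-MSC-CM and TLR-MSC-CM in macrophages for the named genes of 7 osteoclast lists that averaged more than 0.5 CPM in both media, fitted without a donor term (3 libraries per medium), with filled points where the fit with the MSC donor as a block gave an adjusted p under 0.05. The filled points drawn are TRAF6, BCL6, ID3 and NR4A1, and BTK, which the block called as higher with STING-MSC-CM, is not among the genes drawn.

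The adaptors TYROBP (DAP12), through which SIGLEC15 signals, and FCER1G, its relative, were abundant in macrophages. TYROBP was at 418 ± 49.6, 354 ± 45.1 and 371 ± 9.75 CPM with resting, TLR- and STING-MSC-CM and at 466 and 552 CPM in the libraries with cytokines alone and with no addition, and FCER1G was at 747 ± 159, 620 ± 151 and 721 ± 100.3 CPM and at 1030 and 1115 CPM. SYK, the kinase downstream of both, was at 139 ± 5.47, 124 ± 16.4 and 147 ± 6.45 CPM. None of these 3 was called in any of the fits between media in which a test was given. FCER1G was called by MSC donor (548, 806 and 734 CPM for AG1, ORC and PC, adjusted p = 0.00487).

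Among the 23 resorption genes tested, SPP1 (osteopontin) was at 5559 ± 1214, 4256 ± 1306 and 3109 ± 638 CPM with resting, TLR- and STING-MSC-CM, and MMP12 at 508 ± 183, 319 ± 85.0 and 258 ± 22.2 CPM. For TLR-MSC-CM against resting MSC-CM their log2 differences were −0.38 (SE 0.249, adjusted p = 0.999) and −0.67 (SE 0.266, adjusted p = 0.999), and for STING-MSC-CM against resting MSC-CM they were −0.84 (SE 0.250) and −0.98 (SE 0.267) as a description. SPP1 and MMP12 were named for a small p in a macrophage comparison, and neither was called between STING- and TLR-MSC-CM. MMP9, the highest of the list in CPM, was at 23020 ± 3772, 17100 ± 6174 and 19880 ± 4303 CPM and was not called. By MSC donor 10 of the 23 were called, against 15.4% of all genes: PTK2B, SNX10, ACP2, ITGB5, CTSL, ATP6V1C1, CTSB, RAB7A, CA2 and ATP6V1A. Cathepsin B (CTSB) averaged 10520, 15110 and 15370 CPM for AG1, ORC and PC (adjusted p = 0.0261), and the tyrosine kinase PTK2B averaged 80.8, 149 and 130 CPM (adjusted p = 0.00115).

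Of the other lists, 4 of 17 transcription factors (TFE3, TFEB, NFKB2 and PPARGC1B), 2 of the 8 repressors reported (IRF8 and ID2), 3 of 8 fusion genes (CCL2, P2RX7 and CD81), 2 of 10 immunoreceptors and adaptors (BTK and FCER1G) and 2 of 9 coupling factors (PDGFB and SPHK1) were called by MSC donor in macrophages, where the same test called 15.4% of all genes. CD9, a tetraspanin that acts in cell fusion, was at 8.63 ± 1.03, 7.02 ± 1.51 and 4.92 ± 1.65 CPM with resting, TLR- and STING-MSC-CM. The log2 difference of STING-MSC-CM from resting MSC-CM was −0.81 (SE 0.256) as a description. CD9 was named for a small p in a macrophage comparison and was not called between STING- and TLR-MSC-CM.

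The genes whose pattern over the 11 macrophage libraries was most like that of SIGLEC15, by Pearson's r of log2(CPM + 1) among 10701 genes, were KIFC3 (r = 0.943, Spearman's rho = 0.955), RFXAP (0.940 and 0.927), SYT12 (0.935 and 0.936), MCL1 (0.933 and 0.873) and KCNG1 (0.928 and 0.945). MCL1, an anti-apoptotic BCL2 relative, was at 423 to 454 CPM with resting MSC-CM and 382 to 397 CPM with STING-MSC-CM. For DCSTAMP they included ME1, P2RY12, SGTB and CLEC6A (r from 0.976 to 0.986), and for ACP5 they were LY6E, CALR, ZNF330, DDX56 and HEBP1 (r from 0.963 to 0.980). These are the highest of many correlations over libraries that share the same macrophage donor, and they are given with no test. ME1, malic enzyme, was at 176 to 244 CPM with resting MSC-CM, 227 to 282 CPM with STING-MSC-CM and 288 and 284 CPM in the 2 libraries without MSC-CM.

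In synoviocytes and chondrocytes none of the genes above the floor passed the adjusted threshold between media. CTSK in synoviocytes measured 311, 265 and 333 CPM with resting MSC-CM of AG1, ORC and PC, 332, 436 and 344 CPM with TLR-MSC-CM, and 340, 395 and 349 CPM with STING-MSC-CM. Both activated media were higher in 3 of 3 donors, as were 14.1% of all genes in each comparison, with log2 fold changes of 0.29 (SE 0.109, adjusted p = 0.494) and 0.25 (SE 0.109, adjusted p = 0.634), and the STING-MSC-CM libraries lay above all resting ones. Such separation in this direction was found in 7.14% of the 14584 genes tested. For TLR- and STING-MSC-CM edgeR called 0.0% of genes, with 1465 and 1109 genes at an unadjusted p under 0.05, and DESeq2 called 2 and 0. In chondrocytes CTSK had log2 differences of 0.09 (SE 0.120, adjusted p = 1.0) and 0.10 (SE 0.120, adjusted p = 1.0). The change of CTSK with TLR-MSC-CM in macrophages minus the mean change in the 2 other cell types was −0.35 (SE 0.201, adjusted p = 0.9999), and the same difference for STING-MSC-CM was −0.55 (SE 0.201) as a description.

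NFATC1 in synoviocytes ranged from 24.6 to 29.3 CPM with the 3 media and in chondrocytes from 30.4 to 37.8 CPM, with log2 differences from resting MSC-CM between −0.06 and 0.08 and adjusted p-values of 0.85 to 1.0. In both cell types it was higher in the single library with no addition. It was at 37.1 CPM with no addition against 27.9 CPM with the cytokines in synoviocytes (ratio of cytokines to no addition 0.752, exact 95% interval 0.685 to 0.824) and at 44.2 against 30.2 CPM in chondrocytes (ratio 0.683, exact 95% interval 0.63 to 0.741). CTSK in synoviocytes was likewise at 465 CPM with no addition and 337 CPM with the cytokines (ratio 0.725, exact 95% interval 0.706 to 0.744). No gene of the 7 differed by 2-fold between the single libraries of a cell type where both were above the floor, a difference shown by 4.19% of genes in macrophages, 8.75% in synoviocytes and 14.7% in chondrocytes.

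ACP5 in synoviocytes ranged from 5.37 to 8.11 CPM, with log2 differences of 0.16 (SE 0.151, adjusted p = 0.714) with TLR-MSC-CM and 0.11 (SE 0.152, adjusted p = 0.847) with STING-MSC-CM. In chondrocytes it had 0 to 20 counts. With medium of ORC it was at the floor there, at 0, 3 and 1 counts with resting, TLR- and STING-MSC-CM. OCSTAMP in synoviocytes had 4, 1 and 0 counts with resting MSC-CM of AG1, ORC and PC, 9, 1 and 10 counts with TLR-MSC-CM, and 11, 6 and 4 counts with STING-MSC-CM. The fitted log2 differences from resting MSC-CM were 1.76 (SE 0.945, adjusted p = 0.525) and 1.85 (SE 0.938, adjusted p = 0.634), higher in 3 of 3 donors in CPM, and they rest on these few counts. In chondrocytes, ACP5 by the MSC donor of the medium averaged 0.331, 0.0446 and 0.427 CPM for AG1, ORC and PC (adjusted p = 0.0176, lost without the resting or the STING library of ORC at 0.0918 and 0.0651) and CTSK averaged 496, 506 and 581 CPM (adjusted p = 0.0353, lost without resting ORC, STING PC, TLR ORC or TLR PC, with an adjusted p of up to 0.231), in a comparison where 40.1% of the 14304 genes were called. In synoviocytes the donor test called 0 of 14584 genes with edgeR, and 3 with DESeq2. Without the resting library of ORC edgeR called 710 genes there, CTSK among them (adjusted p = 0.00238).

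In the MSC themselves CTSK separated the donor horses. Untreated MSC held 216 CPM in donor 92, 1316 CPM in donor 99 and 1063 CPM in donor PC. With the TLR3 agonist the values were 194, 1465 and 978 CPM, with the STING agonist 322, 1744 and 1195 CPM, and under the CpG label 176, 1260 and 915 CPM. Donor 92 was lowest and donor 99 highest in every condition, a largest distance of 2.66 on the log2 scale (edgeR's quasi-likelihood F test over the 9 libraries without CpG, adjusted p = 1.24e-05), called in all 13 alternatives. In that comparison 53.8% of the 14872 genes were called.

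ACP5 was found chiefly in MSC of donor 99, with 117, 32, 26 and 74 counts in the untreated, TLR3 agonist, STING agonist and CpG libraries, against 0 to 2 counts in donor PC and 4 to 11 counts in donor 92 (adjusted p for donor 0.00168). NFATC1 ranged from 23.4 to 53.1 CPM over the 12 MSC libraries and was not called by donor (adjusted p = 0.117). SIGLEC15, DCSTAMP, OCSTAMP and CALCR had 0 to 3 counts in all 12 MSC libraries, which was not detectable above the floor of 0.0599 to 0.105 CPM at this depth. The MSC donors 99 and 92 of these libraries and the donors ORC and AG1 of the media carry different labels and were not matched.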

How the data were processed

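Bulk RNA sequencing of 45 equine libraries was analysed. Per the labels and the study's methods, the authors trimmed reads with cutadapt 1.12, aligned them with STAR 2.7.3a to EquCab3.0 and counted them per gene with HTSeq 0.11.0 on Ensembl annotation 108, keeping protein coding genes. The deposited values are raw counts, of which 41 large ones were rounded by the authors to 3 digits. The 7 genes and the gene lists were chosen with earlier results of these data known.

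Counts were tested with edgeR 4.0.16 (TMM scaling, quasi-likelihood F test, at least 10 counts in total, Benjamini-Hochberg adjusted p under 0.05) in R 4.3.3. A separate fit was made for each cell type, and cell types were compared in 1 fit over the resting MSC-CM libraries. DESeq2 1.42.0, other scaling and filters, an MSC donor block and leaving out each library were alternatives. Intervals and floors cover counting error only. Scripts were tested on simulated data.

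Libraries of the same MSC donor deviated together from their group means, with 9 correlations of 0.138 to 0.301 in macrophages, 0.355 to 0.719 in chondrocytes and 0.636 to 0.835 in MSC, so the donor paired those libraries. In synoviocytes they were −0.166 to 0.141. List genes were named if they were ligands or receptors, or had the smallest p or the highest level of their list. BTK and the genes called by MSC donor beyond these were named after their values were seen. Some genes, 1 of them removed from the list of repressors, are not reported here.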

Additional observations from a re-analysis of the deposited data

Results flagged for a closer look

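The log2 fold change of CTSK from resting MSC-CM to STING-MSC-CM had opposite signs in 2 joint cell types. It was −0.366 in macrophages, lower in 3 of 3 MSC donors with overlapping groups, where 17.7% of all genes were lower in all donors, and this comparison had served to choose the genes and was not tested. It was 0.253 in synoviocytes (adjusted p = 0.634 in edgeR's quasi-likelihood test), higher in 3 of 3 donors, as were 14.1% of all genes. The difference between the cell types was not tested.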

How the results depend on the processing

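With edgeR and no donor block, 0 genes were called between media in each joint cell type and between agonists and untreated MSC. DESeq2 called 5 genes for STING-MSC-CM against resting MSC-CM and 33 for STING- against TLR-MSC-CM in macrophages, 2 for TLR-MSC-CM in synoviocytes, 52 and 95 for the TLR3 and STING agonists in MSC, 4 for the STING-MSC-CM change in macrophages minus that in the other joint cells, and 3 for the MSC donor in synoviocytes. The MSC donor as a replicate block called 80 and 336 genes in the same macrophage comparisons, 2 for STING-MSC-CM in chondrocytes, 2 for the STING agonist in MSC and 31 for the STING-MSC-CM change between cell types, and among the 7 genes, where a test was given, the block changed the call of DCSTAMP for STING- against TLR-MSC-CM. In synoviocytes, whose numbers did not pair the libraries, the block called 0 genes. No filter on low counts gave 1 gene for TLR-MSC-CM in synoviocytes.

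Leaving out 1 library at a time gave 0 to 51 genes for the TLR3 agonist in MSC (51 without the TLR3 library of donor 92), 0 to 1 for the STING-MSC-CM change between cell types (1 without the macrophage library of AG1), and 0 to 0 for the other comparisons of media or agonists. It gave 10279 to 10721 and 10425 to 11056 genes for macrophages against synoviocytes and chondrocytes. For the MSC donor it gave 980 to 1996 genes in macrophages, 4057 to 5492 in chondrocytes and 0 to 710 in synoviocytes (710 without resting ORC), and 5179 to 9795 for the donor horse in MSC, with 5198, 5278, 5310, 5179 and 5300 without the libraries STING 99, STING PC, TLR3 99, TLR3 PC and untreated PC.

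Small log2 differences changed sign. With the block, the difference of TLR-MSC-CM from resting MSC-CM in macrophages was 0.0116 for ACP5 and −0.0193 for DCSTAMP. Leaving out 1 library at a time gave −0.2264 to 0.1685 for ACP5, −0.2275 to 0.2226 for DCSTAMP, −0.0652 to 0.4236 for OCSTAMP and −0.2187 to 0.0551 for NFATC1 in that comparison. For STING- against TLR-MSC-CM it gave −0.3313 to 0.0324 for CTSK, −0.3238 to 0.0974 for OCSTAMP and −0.1751 to 0.012 for NFATC1, with the positive end for CTSK and NFATC1 reached without TLR ORC and for OCSTAMP without TLR AG1. NFATC1 with TLR-MSC-CM in synoviocytes ranged from −0.0003 to 0.1293, and CTSK with STING-MSC-CM in chondrocytes from −0.023 to 0.1917. None of these passed the threshold in any setting, and the cause was not tested. Of the values of the 7 genes under alternatives, 569 kept direction and call, 18 lost and 8 gained the call, and 17 changed sign.

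Each joint cell type came from 1 horse and each medium from 3 MSC donors, so the spread between joint cell horses is not measured. The libraries with cytokines alone and with no addition have no replicates, and their differences were not tested over samples. Genes with 3 counts or fewer in a library were not detectable above the floor at this depth, which held for CALCR in all libraries but 1.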
